A study of Mus musculus with 6 samples.

Results

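Egr1, Nr4a1, Klf2, Klf4, Myc, Dusp1, Zfp36, Btg2, Ier2 and Ier3 are immediate early genes whose products are not subunits of the AP-1 transcription factor. They were taken by symbol from the deposited table, which held all 10 among its 18158 features. Ventricle tissue was sequenced from 6 mice of the outbred CD1 stock at 3 months of age. Of these, 3 received the vehicle PBS by daily injection, and 3 received Paro/Neo, the aminoglycoside antibiotics paromomycin and neomycin, at 150 mg/kg 2 times a day into the peritoneum, both for 14 days. The study used the combination to lower the activity of the transcription factors Meis1 and Hoxb13. Each library is 1 mouse, no group carries a genetic modification, and the labels do not give the hours between the last injection and the collection of the hearts.

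Immediate early genes are switched on within minutes of a stimulus by factors that already wait at their promoters, so no new protein has to be made first. Growth factors, stretch, catecholamines and blood flow reach them through the MAP kinases and the factors SRF, with its Ets partners of the Elk family, CREB and MEF2. The mRNAs are short-lived. Some of the proteins are transcription factors that set the next wave of genes, and others end the response, by removing phosphate from the kinases or by hastening mRNA decay.

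Promoter sequences were searched for letters that match the sites of these factors, and are shown for the 4 members that held an SRF site, a whole cAMP response element or at least 3 short ones. RefSeq's promoter table (GRCm38.p6, the build mm10) matched 7 of the 10 members, namely Nr4a1, Klf2, Klf4, Dusp1, Zfp36, Btg2 and Ier3. The windows run from 250 bases before to 50 bases after the start site, and both strands were searched. Below, the 250 bases before the start site are printed in the direction of transcription, and capitals mark the CArG box (the SRF site) in Zfp36 and TGACG, the short cAMP response element, or the whole element TGACGTCA, in either direction, in the other members.
Btg2, chr1:134079156-134079405, minus strand: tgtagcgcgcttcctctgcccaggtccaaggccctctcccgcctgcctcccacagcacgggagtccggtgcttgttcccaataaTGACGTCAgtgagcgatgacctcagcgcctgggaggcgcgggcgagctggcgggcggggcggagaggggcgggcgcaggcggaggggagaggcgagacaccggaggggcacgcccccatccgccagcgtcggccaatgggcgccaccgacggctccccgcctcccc
Dusp1, chr17:26508473-26508722, minus strand: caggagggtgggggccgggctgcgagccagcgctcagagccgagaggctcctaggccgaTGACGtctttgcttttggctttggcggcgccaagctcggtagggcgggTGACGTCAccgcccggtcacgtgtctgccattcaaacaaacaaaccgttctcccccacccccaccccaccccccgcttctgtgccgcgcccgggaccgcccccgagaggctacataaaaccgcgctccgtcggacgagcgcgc
Nr4a1, chr15:101266596-101266845, plus strand: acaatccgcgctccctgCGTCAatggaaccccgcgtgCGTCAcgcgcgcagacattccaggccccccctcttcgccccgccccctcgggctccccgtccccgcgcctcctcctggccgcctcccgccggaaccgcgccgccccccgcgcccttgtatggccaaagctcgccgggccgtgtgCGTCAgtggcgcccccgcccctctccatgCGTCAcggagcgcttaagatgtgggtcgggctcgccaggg
Zfp36, chr7:28379229-28379478, minus strand: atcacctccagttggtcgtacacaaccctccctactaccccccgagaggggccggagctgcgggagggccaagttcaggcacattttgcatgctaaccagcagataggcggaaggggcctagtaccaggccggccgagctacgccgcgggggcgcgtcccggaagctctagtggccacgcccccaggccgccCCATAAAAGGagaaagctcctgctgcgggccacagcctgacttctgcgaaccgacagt

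The whole element TGACGTCA stood in the windows of Btg2, 166 bases before the start site, and of Dusp1, 143 bases before it. This is 2 of 7 members, while 2.98% of the 11767 promoters of tested genes held it. The short form TGACG, which the whole element contains, was found in 5 of 7 (Nr4a1, Klf2, Klf4, Btg2 and Dusp1) against 30.8%, with 4 copies in Nr4a1. The CArG box was found in 1 of 7, Zfp36, 58 bases before the start site, against 1.32%. GCGGGGGCG, a site bound by Egr proteins, was present in 4 of 7 (Nr4a1, Klf2, Klf4 and Zfp36) against 5.4%, and its variant GCGTGGGCG in 0 of 7 against 1.16%. The GC box GGGCGG was in 7 of 7 against 62.2%. The AP-1 site TGACTCA, whose other strand reads TGAGTCA, and the TATA box TATAAA were in 0 of 7, against 3.73% and 7.43%. These matches describe letters in a window and say nothing about binding.

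The libraries held at least 9556387 to 15969980 reads, as inferred from the steps of the TPM values (transcript shares, scaled to transcript length and summing to 1000000 per library). Paro/Neo replicate 1 stood apart. Its mean correlation with the other libraries across genes was 0.9755, against 0.9814 to 0.9853 for the others, and its deviations from the gene means followed GC content most, with a Spearman coefficient of -0.33 over 12322 genes, against -0.12 to 0.29. The 6 cardiomyocyte markers summed to 97639 to 124900 TPM in every heart, as the tissue label says. The 3 atrial markers Myl7, Sln and Myl4 ranged from 60.8 to 273 TPM in vehicle and from 127 to 529 TPM in Paro/Neo hearts, highest in Paro/Neo replicate 1. The neutrophil markers (2 of 3 listed) summed to 6.77 to 16.9 TPM in vehicle hearts and to 21.4 to 23.2 TPM under Paro/Neo. The part of these differences in the results below was not tested, save by leaving out each library and by a GC correction. Because tissue was sequenced whole, fewer cells of a type and less RNA per cell cannot be told apart.

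Of the 10 members, 8 had a log2 change below 0 in Paro/Neo hearts (53.7% of tested genes did), led by Nr4a1 (-1.003), Egr1 (-0.76), Btg2 (-0.62), Dusp1 (-0.60) and Klf2 (-0.57), while Myc and Ier3 lay above 0 at 0.34 and 0.18. None passed the adjusted threshold of 0.05, with adjusted p from 0.343 for Btg2 to 0.981 for Zfp36 (limma on log2(TPM + 1), two-sided, Benjamini-Hochberg over the 12409 genes tested). Among all genes tested, 0.137% passed in either direction, 0.0161% as lower. All 10 members were above the filter of 1 TPM in at least 3 of 6 libraries. At an unadjusted p under 0.05 there were 4 members, Btg2, Egr1, Dusp1 and Nr4a1, all lower, against 4.37% of tested genes lower and 3.24% higher at that level; with voom, limma's model for reads, 0 passed adjusted and 4 were lower unadjusted. The median log2 change of the members was -0.46, and that of all genes tested was -0.02. The hearts of the groups did not overlap for 3 members, Btg2, Dusp1 and Klf4, each lower in Paro/Neo, against 8.22% of tested genes, and for 0 members higher, against 6.04%. A single library weighed on these figures: the median was -0.23 without Paro/Neo replicate 1, and 6 members did not overlap, lower in Paro/Neo, without Paro/Neo replicate 3 or without vehicle replicate 3. In those smaller comparisons, 16% and 14% of all tested genes did not overlap in that direction. For 3 hearts against 3, the smallest two-sided p of an exact permutation test is 0.1, and no such p is given.

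**Figure D1:**
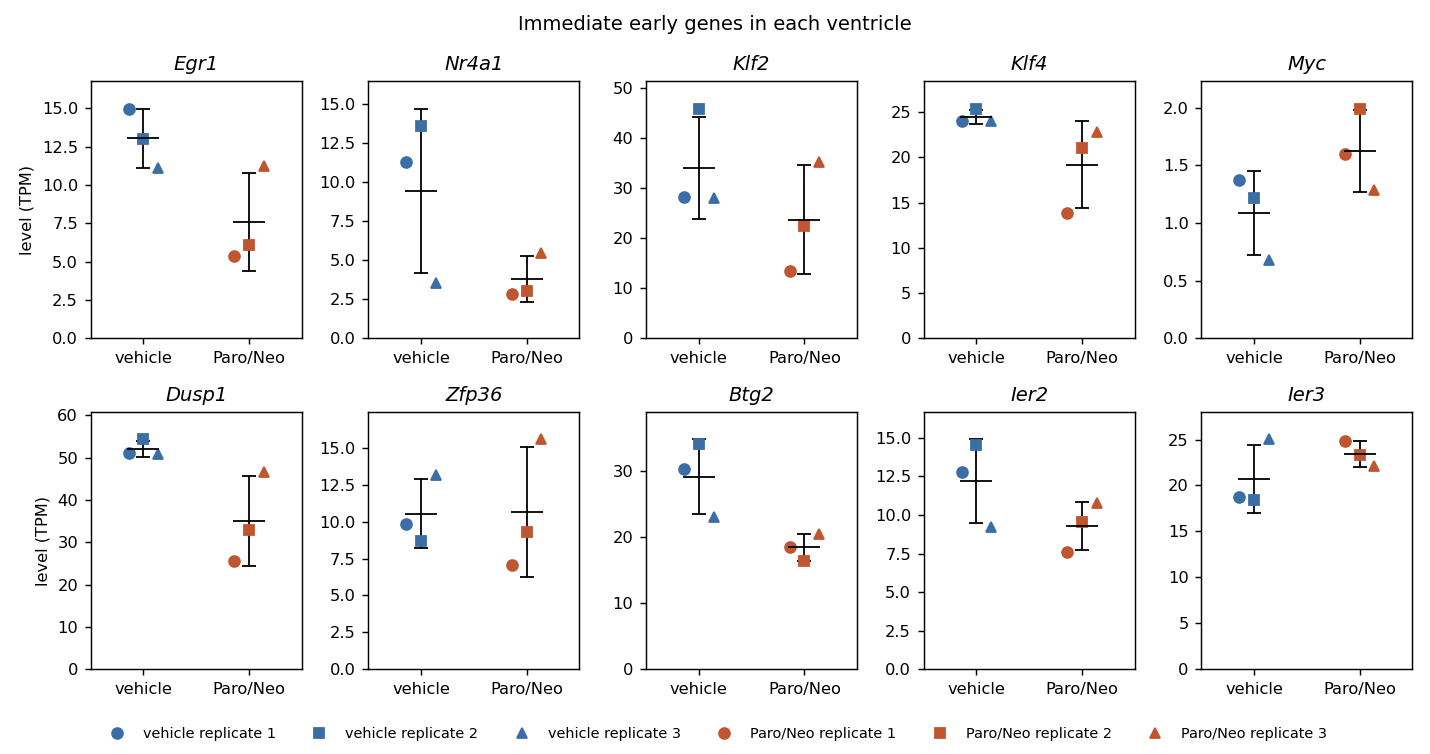
Level in TPM (vertical axis, from 0) of each of the 10 genes in each heart, by group; each point is 1 mouse and the black bars are the mean and SD of 3. In the panels of Btg2, Dusp1 and Klf4 every Paro/Neo heart lies below every vehicle heart, and in 8 of the 10 panels, all but Ier3 and Myc, Paro/Neo replicate 3 is the highest of the treated hearts.

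Egr1 encodes a zinc finger transcription factor that reads the strength of MAP kinase signalling, and occupies bases 34859823 to 34864984 of chromosome 18 (positions here and below are those of GENCODE M21 on GRCm38). It was at 14.99, 13.0 and 11.1 TPM in vehicle replicates 1 to 3 and at 5.39, 6.08 and 11.3 TPM in Paro/Neo replicates 1 to 3. Paro/Neo replicates 1 and 2 stood under the vehicle range, and replicate 3 stood inside it, just above vehicle replicate 3. The means were 13.0 TPM ± 1.9 and 7.58 TPM ± 3.2 (SD, n = 3 each, as throughout), a ratio of 0.581 and a log2 change of -0.76 ± 0.24 (SE). Its limma adjusted p was 0.496, with a 95% interval from -1.32 to -0.20. Over 17 alternative settings the log2 change ranged from -1.05 to -0.58 and the adjusted p from 0.0917 to 0.882. Without Paro/Neo replicate 3, the heart that overlapped the vehicle group, the change was -1.05 with the smallest of these adjusted p, 0.0917. The unadjusted p stayed under 0.05 in 17 of 17 alternatives, as it did for Btg2 and Dusp1. The reads behind the levels numbered 125 to 377 per library.

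Nr4a1, an orphan nuclear receptor induced by catecholamines and other stimuli, lies on chromosome 15 at 101254269 to 101274795. It was at 11.2, 13.5 and 3.53 TPM in vehicle replicates 1 to 3. In Paro/Neo replicates 1 to 3 it was at 2.85, 3.02 and 5.49 TPM. Vehicle replicate 3 thus lay among the treated hearts, and the other two vehicle hearts lay above all of them. The highest vehicle heart had 3.84 times the level of the lowest, a wider spread than in 98.9% of tested genes, whose median was 1.21. The means were 9.44 TPM ± 5.2 and 3.78 TPM ± 1.5, a ratio of 0.401 and a log2 change of -1.003 ± 0.42 (SE), with 0.234% of tested genes at a lower value. Its limma adjusted p was 0.643 and its 95% interval -1.97 to -0.03. Over the alternatives the change ranged from -1.52, without vehicle replicate 3, to -0.68, without vehicle replicate 2, and the adjusted p from 0.194 to 0.907 at the same settings. The unadjusted p was under 0.05 in 11 of 17 alternatives, and was 0.128 without Paro/Neo replicate 1. The level in vehicle replicate 3 rests on 43 reads, and the 4 copies of TGACG printed above belong to this gene.

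Klf2 and Klf4 encode Krüppel-like factors that endothelial cells make under laminar flow, where they keep the vessel wall quiescent. Klf2 (chromosome 8 at 72319033 to 72321656) was at 28.3, 45.9 and 28.1 TPM in vehicle replicates 1 to 3 and at 13.5, 22.5 and 35.2 TPM in Paro/Neo replicates 1 to 3. The groups overlapped, since Paro/Neo replicate 3 lay above 2 vehicle hearts. The log2 change was -0.57 ± 0.33 (SE), with a limma adjusted p of 0.723 and a 95% interval from -1.32 to 0.18. Leaving out Paro/Neo replicate 1 gave -0.23, vehicle replicate 2 -0.34 and Paro/Neo replicate 3 -0.89, and weighting the libraries by their quality gave -0.35.

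Klf4 (chromosome 4 at 55527143 to 55532466) was at 24.0, 25.4 and 24.1 TPM in vehicle and at 13.8, 21.1 and 22.8 TPM in Paro/Neo replicates 1 to 3. The vehicle hearts agreed closely, with a ratio of highest to lowest of 1.06 that was smaller in only 7.55% of tested genes, and every treated heart lay below them. For Paro/Neo replicates 2 and 3 the gap was small. Its log2 change was -0.36 ± 0.18 (SE), with a limma adjusted p of 0.691; without Paro/Neo replicate 1 it stood at -0.15, and with libraries weighted at -0.21.

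The 7 endothelial markers (Pecam1, Cdh5, Kdr, Tek, Tie1, Icam2 and Emcn) differed alongside. Their sum ranged over 537 to 618 TPM in the vehicle group and over 409 to 536 TPM in the treated group. It was lowest in Paro/Neo replicate 1 and highest in vehicle replicate 2, as Klf2 and Klf4 were. Nr4a1, Ier2 and Dusp1 had the same lowest and highest hearts, and Paro/Neo replicate 1 was lowest for 32.7% of all genes tested. Of these markers 6 had a log2 change below 0 and 1 above, none past the adjusted threshold (limma; 2 lower and 0 higher at an unadjusted p under 0.05), with a median of -0.28 that was -0.16 without Paro/Neo replicate 1. None was at 0 in any library. Of all tested genes, 53.7% were below 0, and 4.37% were lower and 3.24% higher at an unadjusted limma p under 0.05. Set against that sum, Klf2 was 5.96% ± 1.3 in vehicle and 4.76% ± 1.7 in Paro/Neo hearts, and Klf4 4.34% ± 0.20 and 3.92% ± 0.47. The part of endothelial content in the values of either gene was not tested further. Of 5 tested endothelial genes known to respond to these factors, 1 was higher and 4 lower, and none passed the adjusted threshold (limma). At an unadjusted limma p under 0.05 there was 1 in each direction, against the same shares of all tested genes. The median was -0.21, or -0.02 without Paro/Neo replicate 1, taken without regard to whether these factors induce or repress a gene. Nos3, the endothelial nitric oxide synthase, had a mean of 8.03 TPM ± 0.37 with vehicle and of 5.20 TPM ± 1.6 with Paro/Neo, and the adhesion molecule gene Vcam1, which these factors repress, at 20.6 TPM ± 1.3 and 25.2 TPM ± 0.85. The thrombomodulin gene Thbd was at 40.3 TPM ± 3.0 and 35.8 TPM ± 11, and the lipid receptor gene S1pr1 at 46.8 TPM ± 3.1 and 40.8 TPM ± 10.1. Edn1, the last of the 5, was nearly level at 5.24 TPM ± 0.88 and 5.06 TPM ± 1.5, a log2 change of -0.06.

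**Figure D2:**
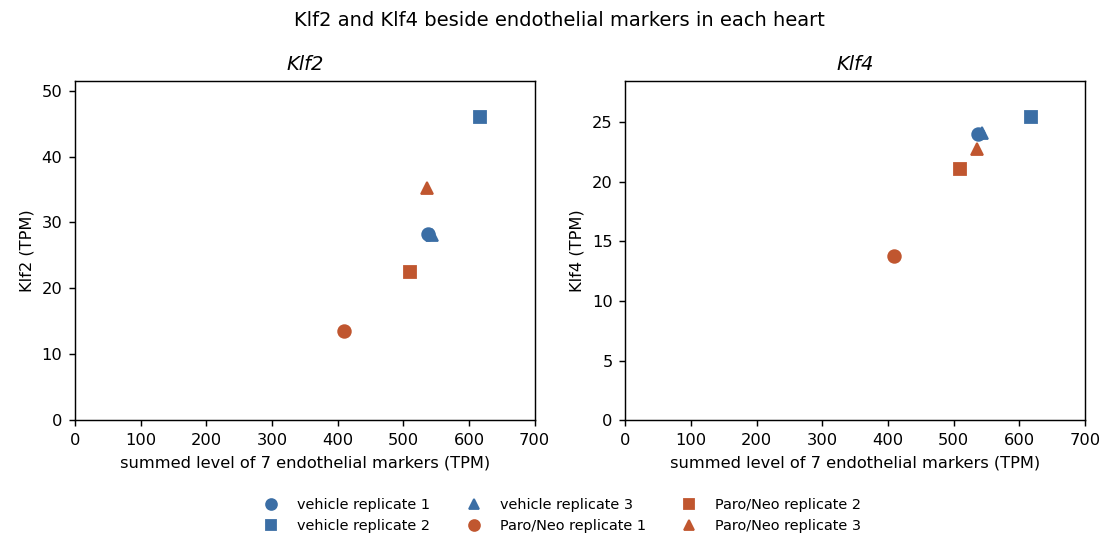
Level of Klf2 (left) and Klf4 (right) in TPM against the summed TPM of 7 endothelial markers, 1 point per heart. In both panels Paro/Neo replicate 1 is lowest on both axes, at a sum of 409 TPM, and vehicle replicate 2 highest on both, at 618 TPM.

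Myc, the growth-promoting transcription factor that is low in adult muscle, lies on chromosome 15 at 61985391 to 61990374. It was the scarcest of the 10, at 1.37, 1.22 and 0.678 TPM in vehicle and 1.60, 1.99 and 1.29 TPM in Paro/Neo replicates 1 to 3. Vehicle replicate 3 was lowest and Paro/Neo replicate 2 highest, and the groups overlapped through vehicle replicate 1. Its log2 change was 0.34 ± 0.19 (SE), with a limma adjusted p of 0.715 and a 95% interval from -0.10 to 0.77. A pseudocount of 0.1 gave 0.57, voom gave 0.54, and leaving out vehicle replicate 3 gave 0.19. That library held 8 Myc reads, for which the exact Poisson 95% interval is 3.45 to 15.8 and covers counting error only. Among 10 tested genes of its network and of the Egr corepressors, 8 were above 0 and 2 below, while 53.7% of all tested genes were below 0. The 10 had a median of 0.06, and none passed the adjusted threshold (limma). At an unadjusted limma p under 0.05 there were 0, against 4.37% of tested genes lower and 3.24% higher. Myc's partner Max was at 29.0 TPM ± 2.1 and 33.8 TPM ± 2.2. The repressors that compete for Max, Mxi1 and Mnt, were at 17.5 TPM ± 2.0 and 19.9 TPM ± 1.4, and at 1.96 TPM ± 0.11 and 2.44 TPM ± 0.22, vehicle first. Nab2, a corepressor of Egr proteins, was at 4.51 TPM ± 0.78 and 3.53 TPM ± 0.79.

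Dusp1 encodes a nuclear phosphatase that switches off the MAP kinases p38, JNK and ERK. Its GENCODE gene spans chromosome 17 from 26505590 to 26562128 and overlaps other annotated genes, among them Ergic1 on the opposite strand. It was the most abundant member in both groups, at 51.0, 54.3 and 50.8 TPM in vehicle and 25.7, 33.0 and 46.7 TPM in Paro/Neo replicates 1 to 3. Vehicle hearts lay within 1.07 times of each other, while the treated hearts spread 1.82-fold, and all of them were below the vehicle range. The means were 52.0 TPM ± 2.0 and 35.1 TPM ± 10.7, a ratio of 0.675, with a log2 change of -0.60 ± 0.19 (SE). Its limma adjusted p was 0.497 and its 95% interval -1.04 to -0.15. Over the alternatives the change ranged from -0.82, without Paro/Neo replicate 3, to -0.40, without Paro/Neo replicate 1, and the adjusted p from 0.129 to 0.882.

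Btg2, an antiproliferative factor that recruits the deadenylase complex to mRNAs, lies on chromosome 1 at 134075170 to 134079120. It was at 30.4, 34.2 and 23.0 TPM in vehicle replicates 1 to 3 and at 18.5, 16.4 and 20.5 TPM in Paro/Neo replicates 1 to 3. The groups did not overlap, and Paro/Neo replicate 2 was the lowest of the 6 hearts, a place it took in no other member. The means were 29.2 TPM ± 5.7 and 18.5 TPM ± 2.1, a ratio of 0.633. Its log2 change was -0.62 ± 0.16 (SE) with a limma adjusted p of 0.343, the smallest among the members, and it ranked 165 by p among the 12409 genes. It was also the lowered member least touched by Paro/Neo replicate 1, at -0.62 without that heart, and over the alternatives it ranged from -0.78 to -0.50, with adjusted p from 0.171 to 0.774. Its window and that of Dusp1 were those that held the whole element TGACGTCA.

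Zfp36 encodes tristetraprolin, which binds AU-rich mRNAs and marks them for decay. The gene, on chromosome 7 at 28376784 to 28380253, overlaps an annotated antisense gene, and whether the counting used strand was not stated in the labels. It was at 9.83, 8.68 and 13.1 TPM in vehicle and at 7.07, 9.31 and 15.6 TPM in Paro/Neo replicates 1 to 3. The lowest and the highest heart were both treated, with a 2.20-fold spread among them. The log2 change was -0.03 ± 0.26 (SE), with a limma adjusted p of 0.981 and a 95% interval from -0.64 to 0.57, and its sign changed under 5 alternatives, among them the GC correction at 0.02.

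Ier2, a small nuclear protein induced by serum, lies on chromosome 8 at 84661331 to 84662852. It was at 12.8, 14.6 and 9.22 TPM in vehicle and 7.63, 9.52 and 10.8 TPM in Paro/Neo replicates 1 to 3. Vehicle replicate 3 lay within the treated range. Its log2 change was -0.35 ± 0.19 (SE) with a limma adjusted p of 0.708. Leaving out Paro/Neo replicate 1 gave -0.22, vehicle replicate 2 -0.21 and vehicle replicate 3 -0.52. Ier3, a regulator of cell survival in stress, lies on chromosome 17 at 35821684 to 35822923. It was at 18.7, 18.5 and 25.01 TPM in vehicle and 24.8, 23.3 and 22.1 TPM in Paro/Neo replicates 1 to 3. All treated hearts were above vehicle replicates 1 and 2, and vehicle replicate 3 was above all of them. The log2 change was 0.18 ± 0.14 (SE) with a limma adjusted p of 0.774, at 0.12, 0.11 and 0.32 without vehicle replicates 1, 2 and 3.

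**Figure D3:**
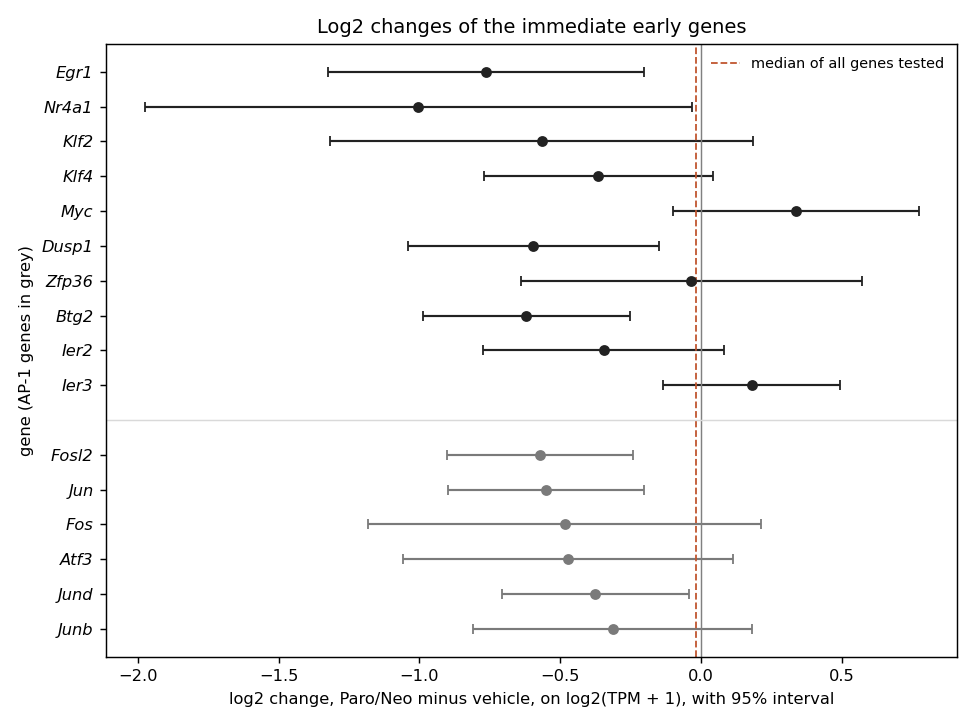
Log2 change of each of the 10 genes (black) and of the 6 tested AP-1 genes (grey), Paro/Neo minus vehicle on log2(TPM + 1), with 95% intervals from limma; the dashed line is the median of all genes tested, -0.02. The intervals of Egr1, Nr4a1, Dusp1 and Btg2 lie below 0, without adjustment for the number of genes, while those of Klf2, Klf4, Myc, Zfp36, Ier2 and Ier3 span it.

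Ordered by mean level in vehicle hearts, which TPM allows because it is scaled to transcript length, the members ran from Dusp1 at 52.0 TPM through Klf2 at 34.1, Btg2 at 29.2, Klf4 at 24.5, Ier3 at 20.7, Egr1 at 13.0, Ier2 at 12.2, Zfp36 at 10.5 and Nr4a1 at 9.44 to Myc at 1.09 TPM. Dusp1 and Myc stood clear of their neighbours by more than the SDs, as did Ier3 and Egr1 of each other (20.7 TPM ± 3.7 and 13.0 TPM ± 1.9). Klf4 and Ier3 differed by about the SD of Ier3, and the other neighbours by less than the larger SD of the pair. In Paro/Neo hearts Dusp1 stayed first at 35.1 TPM and Myc last at 1.63 TPM. Ier3 moved up to stand just below Klf2 there, at 23.4 TPM ± 1.4 against 23.7 TPM ± 11, and Btg2 and Klf4 came after it.

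Within each group, 1 heart was often the lowest or highest from member to member. Paro/Neo replicate 1 was the lowest of the 6 hearts for 7 members (Egr1, Nr4a1, Klf2, Klf4, Ier2, Dusp1 and Zfp36), a position it held for 32.7% of all genes tested. Paro/Neo replicate 3 was the highest of the treated hearts for 8 members, and for 37.8% of all genes. In the vehicle group, replicate 2 was highest for 6 members (39.5% of all genes) and replicate 3 lowest for 7 (36.1%). On the log2 scale, the median of the members relative to the vehicle mean was -0.70, -0.42 and -0.12 in Paro/Neo replicates 1 to 3 and 0.02, 0.08 and -0.22 in vehicle replicates 1 to 3. Vehicle replicate 3 therefore lay below Paro/Neo replicate 3 by this measure, and the groups overlapped.

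**Figure D4:**
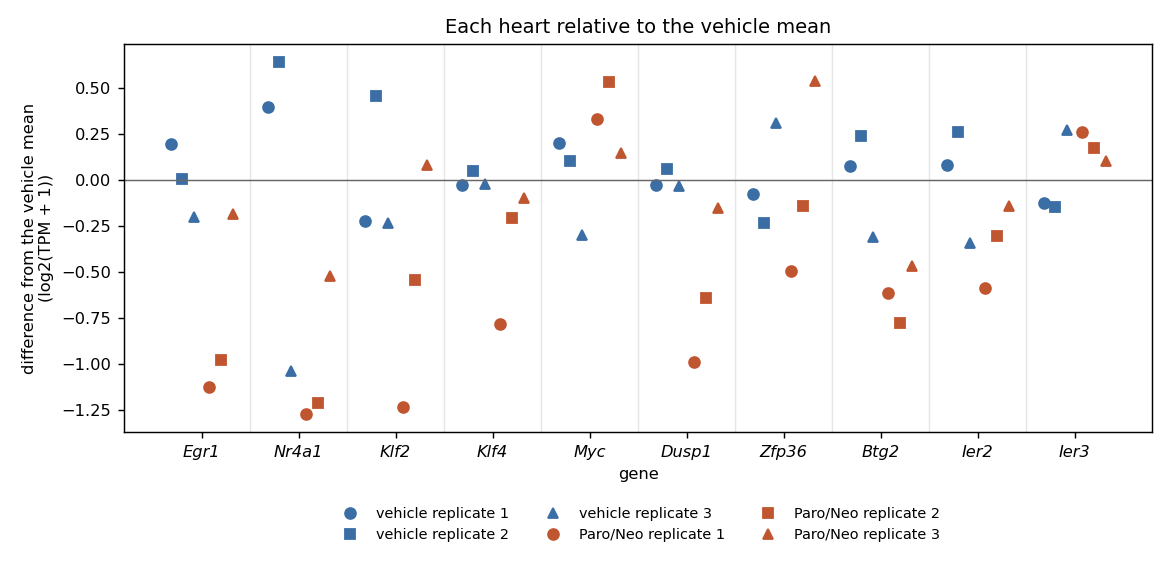
Difference of each heart from the vehicle mean on log2(TPM + 1) (vertical axis) for each gene (horizontal axis); colours are groups and shapes are replicates. Paro/Neo replicate 1 reaches -1.28 for Nr4a1 and -1.23 for Klf2, while Paro/Neo replicate 3 is at 0.08 for Klf2 and 0.54 for Zfp36.

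Transcripts of the members were rich in GC, with a median of 55.3% against 50.6% for tested genes, and Klf2, Klf4 and Ier2 exceeded at least 97.6% of tested genes. Deviations followed GC content most in Paro/Neo replicate 1 (Spearman -0.33), and nearly as much in the other direction in vehicle replicate 2 (0.29). The fit was therefore repeated on values with the GC trend removed from each library. The changes were then -0.95 for Nr4a1, -0.71 for Egr1, -0.59 for Btg2, -0.55 for Dusp1, -0.49 for Klf2, -0.29 for Klf4 and -0.27 for Ier2, and the median of the members was -0.39 against 0.002 for all genes. The same 4 members were lower at an unadjusted p under 0.05, against 4.11% of tested genes in that fit, and 4 members did not overlap, lower in Paro/Neo, against 7.29%.

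Genes related to the members were read as lists. All 6 tested AP-1 subunits had a log2 change below 0, as did 53.7% of tested genes. Their median was -0.48 against -0.02 for all genes, or -0.40 without Paro/Neo replicate 1. None passed adjusted (limma). At an unadjusted limma p under 0.05, 3 were lower, against 4.37% of tested genes. Fosb and Fosl1 were too low to test. Fosl2 was at 7.88 TPM ± 0.49 and 5.02 TPM ± 0.90, Jun at 26.0 TPM ± 4.6 and 17.3 TPM ± 2.1, Jund at 20.2 TPM ± 2.9 and 15.3 TPM ± 2.0, and the stress-induced Atf3 at 6.52 TPM ± 3.0 and 4.18 TPM ± 0.46, vehicle first.

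Of 31 tested immediate early genes of other families, 20 were below 0 and 11 above. Their median was -0.10, which turned to 0.02 without Paro/Neo replicate 1. None passed the adjusted threshold (limma). At an unadjusted limma p under 0.05, 7 were lower and 3 higher, against 4.37% and 3.24% of tested genes. The smallest p belonged to the matricellular gene Thbs1 (4.73 TPM ± 0.86 and 2.64 TPM ± 0.35), the cytokine feedback inhibitor Socs3 (3.15 TPM ± 0.23 and 1.89 TPM ± 0.26), the EGF receptor inhibitor Errfi1 (18.8 TPM ± 2.0 and 12.03 TPM ± 2.5) and the small GTPase gene Gem (7.29 TPM ± 1.3 and 4.73 TPM ± 0.51). In the whole list, 7 of 31 genes had every Paro/Neo heart below every vehicle heart, these 4 among them, against 8.22% of tested genes, and 3 had every Paro/Neo heart above, against 6.04%. The latter, named after their values were seen, were the stress-induced genes Gadd45b (4.83 TPM ± 1.4 and 7.54 TPM ± 0.52), Gadd45g (3.02 TPM ± 0.083 and 4.43 TPM ± 0.51) and Ppp1r15a (11.4 TPM ± 1.9 and 14.97 TPM ± 1.4). Of 23 tested paralogs of the members, 13 were above 0 and 10 below, with a median of 0.03. None passed the adjusted threshold (limma). At an unadjusted limma p under 0.05, 2 were lower and 1 higher, against 4.37% and 3.24% of tested genes. Another 9 paralogs were too low to test, among them Egr2, Egr3, Nr4a2 and Nr4a3. The median therefore holds no paralog of Egr1 or Nr4a1. Ier5l was at 2.42 TPM ± 0.07 and 1.42 TPM ± 0.43, and the ERK phosphatase gene Dusp6 at 21.3 TPM ± 0.74 and 15.9 TPM ± 2.9, with groups that did not overlap. Klf15, a Krüppel-like factor of cardiac metabolism, was on the other side, at 22.4 TPM ± 5.7 and 31.3 TPM ± 2.6, also without overlap. Klf13 was at 8.18 TPM ± 1.0 and 6.70 TPM ± 1.1. Of the 23 paralogs, 2 did not overlap with Paro/Neo lower, against 8.22% of tested genes, and 1 with Paro/Neo higher, against 6.04%. Egr4 was not analysed here.

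Of 31 tested kinases and factors upstream of the members, 17 were above 0 and 14 below. Their median was 0.02 (-0.01 without Paro/Neo replicate 1), with a range from -0.31 to 0.22, and none passed adjusted (limma). At an unadjusted limma p under 0.05, 1 was lower and 0 higher, against 4.37% and 3.24% of tested genes. The groups did not overlap for Elk3 and Crtc3, lower in Paro/Neo, which is 2 of 31 against 8.22% of tested genes. They did not overlap for Araf either, higher in Paro/Neo, 1 of 31 against 6.04%. The gene with the unadjusted p under 0.05 was Elk3, an Ets partner of SRF, with a mean of 34.1 TPM ± 3.3 for vehicle and 27.5 TPM ± 2.8 for Paro/Neo. The CREB coactivator gene Crtc3 was at 3.51 TPM ± 0.44 and 2.65 TPM ± 0.41, the Raf kinase gene Araf at 61.9 TPM ± 4.0 and 71.6 TPM ± 6.7, and Map2k5, which activates ERK5, at 14.1 TPM ± 0.80 and 12.1 TPM ± 2.0. Their mRNA levels do not report kinase activity.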

How the data were processed

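The table used holds 1 column per mouse, 3 vehicle and 3 Paro/Neo, in TPM made by the authors, each column summing to 1000000 over 18158 features. The submitters' processing notes name the build mm10 and, without saying what each was used for, STAR 2.5.3a, FastQC 0.11.5, Subread, featureCounts and edgeR. For annotation, strand setting and filter, the entry is: not given in the sources used here. TPM values are shares, so a rise in abundant genes lowers the rest. Columns were matched to samples by their descriptions, and replicate numbers are those of the titles. Nothing says whether a shared number marks a litter or a day.

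A gene was tested if 3 of the 6 libraries or more had 1 TPM (12409 genes). The scale was log2(TPM + 1), which understates changes of low genes, and the test was limma's moderated one with an intensity trend (version 3.58.1, R 4.3.3). Whole reads were inferred from ratios of low TPM values: 17574 of 17574 features above 0 came out within 0.001 of a read, as lower estimates, since a factor shared by all libraries cannot be seen. Fits and read inference were tested on simulated data. GC content and positions are from GENCODE M21 (GRCm38), with a GC content for 99.3% of tested genes. Of each related list, up to 4 genes of smallest p are named. Gadd45b, Gadd45g, Ppp1r15a and Edn1 are named besides, chosen after their values were seen. Some genes too low to test are also named. The members and lists were chosen with earlier results of these data known. The p-values set each group difference against the spread between these mice, which limma moderates across genes.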

Additional observations from a re-analysis of the deposited data

How the results depend on the processing

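Under 17 alternatives, 0 members passed the adjusted threshold (limma, voom on inferred reads included), and 3 to 6 were lower at an unadjusted p under 0.05, against 2.87% to 5.81% of tested genes. Over all genes, 15 were higher and 2 lower. Without a filter there were 5 and 1, without the intensity trend 8 and 1, and with the replicate block 25 higher. Lower genes numbered 4 with libraries weighted and 1 with a filter at 5 TPM or with quantile normalization. The cause of these shifts was not tested. Leaving out 1 library at a time gave 4 to 23 higher and 0 to 4 lower genes, a member median from -0.60 to -0.23, and 3 to 6 members without overlap, lower in Paro/Neo, against 12.8% to 16% of tested genes. The change of Zfp36 turned to 0.018 with the GC correction and 0.012 with libraries weighted, and ranged from -0.32 to 0.20 with 1 library left out, above 0 without Paro/Neo replicate 1, Paro/Neo replicate 2 or vehicle replicate 3. Of 401 values for the 24 other genes named by smallest p, 400 kept their direction. Thbd turned to 0.053 without Paro/Neo replicate 1, in a leave-one-out range from -0.38. Gadd45b, Gadd45g, Ppp1r15a and Edn1 were not among these 24. With the replicate block 3 members were lower at an unadjusted p under 0.05. Same-numbered hearts did not deviate together (-0.05, -0.04 and -0.12 across genes) by the numbers of the titles, and were not treated as pairs. The descriptions number the treated hearts 2 to 4. By those, vehicle replicate 2 shares its number with Paro/Neo replicate 1, and vehicle replicate 3 with Paro/Neo replicate 2. These hearts did not deviate together either (-0.05 and 0.01 across genes), and no fit with that pairing was run. Depth limits Myc most, at 8 to 32 reads per library.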
